A study of Homo sapiens with 12 samples.

Results

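The genes described here encode the machinery that copies chromosomal DNA, from origin licensing to the joining of Okazaki fragments, together with enzymes that supply its nucleotides. The set holds 47 human genes chosen by symbol, all 47 of which were found among the 56832 genes listed for every library, and all 47 passed the level filter that left 17367 genes for testing. They were measured by RNA-seq in DU145, a cell line grown from a brain metastasis of a prostate carcinoma that does not depend on androgen, and the question was how their levels stand in DU145 clones that lack RAC1, a small GTPase that controls actin and adhesion. The 3 RAC1 knockout lines were single-cell clones obtained after transfection of Cas9 with a guide against RAC1: sgRAC1 clone 1 carried guide sgRAC1_1, and sgRAC1 clones 2 and 3 both carried guide sgRAC1_2. The 3 RAC1-positive lines were parental DU145 and sgNTC clones 1 and 2, both derived with the guide sgNTC_1. All lines grew in RPMI with 10% FBS. Each line gave 2 libraries labelled as biological replicates, and the replicate number is also the batch number, so every batch holds 1 library of every line. A clone is 1 cell's descendants, so the spread over the 3 lines of a genotype is the error used for a genotype difference. All 3 knockout lines are clones, while the RAC1-positive group holds parental cells beside its 2 clones. The clones of guide sgRAC1_2 are not independent of each other in their guide.

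DNA is licensed for replication when the origin recognition complex, CDC6 and CDT1 load the MCM2 to MCM7 ring onto origins, while geminin (GMNN) holds CDT1 back. At S phase CDC45 and the GINS complex join that ring to form the active helicase, polymerase alpha with primase starts each strand, polymerases delta and epsilon extend it behind the PCNA clamp that replication factor C loads, and RPA covers the single strands. Many of these genes are known targets of E2F transcription factors and peak in cells that enter S phase, so in a cell population their RNA follows proliferation. In bulk RNA, fewer cells in S phase and less RNA per cell cannot be told apart.

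RAC1 itself (chr7:6374523-6403977, plus strand, in the GENCODE 29 annotation of GRCh38) checked the labels. It stood at 36.5 to 59.2 TPM, a length-scaled share of transcripts, in the 6 knockout libraries and at 149 to 202 TPM in the 6 RAC1-positive libraries, without overlap. The line means were 46.2 ± 9.14 TPM in knockout lines and 172 ± 4.60 TPM in RAC1-positive lines (SD, n = 3 lines each), which is -1.89 as a difference of log2(TPM + 1) with an SE of 0.14 (adjusted p = 0.0467 in limma). It was the only gene of 17367 that passed an adjusted p of 0.05 between the line means, and an edited transcript can still be counted. Its difference stayed between -2.04 and -1.79 under 30 alternatives, of which 11 kept the call and 19 did not (adjusted p up to 0.370 in limma). Depth per library is unknown because TPM keeps none. sgNTC clone 2 replicate 1 stood apart with 13608 genes listed above 0, against 20470 to 25156 in the other 11 libraries, and a median correlation of 0.872 with the rest, against 0.936 to 0.954. The 5 epithelial markers were all above the filter, with summed levels of 372 to 752 TPM in knockout and 273 to 802 TPM in RAC1-positive libraries. KLK3 and TMPRSS2, which mark androgen-responsive luminal cells, were listed at 0 in every library, and the summed 5 luminal markers came to 28.3 to 38.9 TPM in knockout and 30.4 to 53.5 TPM in RAC1-positive libraries. The 5 leukocyte markers summed to 0.726 to 4.23 TPM in knockout and 0 to 1.08 TPM in RAC1-positive libraries with PTPRC and CD3E at 0, the 5 fibroblast markers to at most 0.321 TPM in knockout and 0.207 TPM in RAC1-positive libraries with LUM at 0, and the 4 endothelial markers to at most 0.791 TPM in knockout and 0.779 TPM in RAC1-positive libraries with VWF at 0. CD14 was the 1 leukocyte marker above the level filter. Its line means were 1.79 ± 1.28 TPM in knockout and 0.440 ± 0.238 TPM in RAC1-positive lines. Its highest library was sgRAC1 clone 3 replicate 1 at 4.23 TPM. The part of other cells in the results was not tested.

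Promoters were read for 41 of the 47 genes from the RefSeq table (GRCh38.p14), over the 250 bases before the annotated start; none was matched for POLD3, RPA3, GINS4, MCM5, RPA2 and MCM4. An E2F-type motif (TTTCCCGC, TTTCGCGC, TTTGCCGC or TTTGGCGC on either strand) was present in 13 of the 41 (31.7%), against 2.79% of 27305 promoters in the table and 4.74% of the 8351 that belong to tested genes. The 13 were MCM3, MCM6, MCM7, CDT1, ORC3, GINS2, POLA1, POLA2, POLE, PCNA, RFC3, LIG1 and TYMS. CCAAT, on either strand, was in 23 of the 41 (56.1%), against 33.0% of all promoters and 35.6% of those of tested genes. TTTGAA, the core of the cell cycle homology region found in many mitotic promoters, was in 1 of the 41 (2.44%), against 13.6% and 8.11%. GGGCGG was in 29 (70.7%), against 42.3% and 68.0%. A match is a description of letters and not a binding site, and a promoter without one says only that these letters are not in its window. The promoters of POLA2 (chr11:65261712-65261961, plus strand), GINS2 (chr16:85688955-85689204, minus strand), CDC45 (chr22:19479670-19479919, plus strand) and RFC3 (chr13:33817899-33818148, plus strand) are shown because these genes had among the largest differences described below. Capitals mark E2F-type and CCAAT matches, and the sequence ends at the base before the RefSeq start. The gene coordinates given below are from GENCODE 29, where the outermost start lies upstream of the RefSeq start, by 200 bases for POLA2, 1119 for GINS2, 461 for CDC45 and 100 for RFC3. By that annotation the windows of GINS2 and CDC45 lie wholly inside the gene, and those of POLA2 and RFC3 partly.
POLA2: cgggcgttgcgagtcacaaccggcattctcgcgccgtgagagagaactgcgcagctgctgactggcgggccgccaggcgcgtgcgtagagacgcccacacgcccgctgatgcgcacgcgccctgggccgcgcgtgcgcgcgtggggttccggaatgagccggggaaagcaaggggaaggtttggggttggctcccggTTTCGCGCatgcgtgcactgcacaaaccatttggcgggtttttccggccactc
GINS2: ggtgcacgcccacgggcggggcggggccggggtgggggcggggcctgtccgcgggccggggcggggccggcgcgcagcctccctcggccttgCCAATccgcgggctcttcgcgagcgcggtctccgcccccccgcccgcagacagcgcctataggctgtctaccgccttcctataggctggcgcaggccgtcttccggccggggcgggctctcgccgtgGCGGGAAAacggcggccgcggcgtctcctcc
CDC45: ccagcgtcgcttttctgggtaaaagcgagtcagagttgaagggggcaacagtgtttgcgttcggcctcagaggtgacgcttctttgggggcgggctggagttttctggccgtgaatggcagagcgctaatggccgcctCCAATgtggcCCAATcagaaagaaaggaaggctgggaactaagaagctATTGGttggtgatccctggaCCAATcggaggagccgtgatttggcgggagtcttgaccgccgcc
RFC3: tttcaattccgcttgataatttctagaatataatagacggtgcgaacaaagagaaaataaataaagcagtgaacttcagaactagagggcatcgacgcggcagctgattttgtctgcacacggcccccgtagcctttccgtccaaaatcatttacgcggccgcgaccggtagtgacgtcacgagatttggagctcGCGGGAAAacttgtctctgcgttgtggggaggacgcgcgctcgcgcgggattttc
POLA2 holds 1 E2F-type match whose first base is at -53, GINS2 holds 1 at -31 and a CCAAT at -158, and RFC3 holds 1 E2F-type match at -55. CDC45 holds none of the E2F-type strings listed above and 4 CCAAT matches, at -112, -102, -64 and -44. The windows of CDC45 and POLA2 each hold TTTGGCGG, which differs from the listed TTTGGCGC in its last letter and was not counted.

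The levels of the genes spanned a wide range. PCNA, the sliding clamp, had the highest median over the 12 libraries, 581 TPM. It was followed by TK1, which salvages thymidine, at 349 TPM, RPA2 at 259 TPM and RRM1, the large subunit of ribonucleotide reductase, at 241 TPM. At the low end stood LIG1, which seals Okazaki fragments, at 4.16 TPM, and the catalytic subunits of the replicative polymerases, POLD1 at 1.82 TPM and POLE at 1.42 TPM, with POLA1 at 6.43 TPM. TPM is a level per length, and the span was 410-fold. Setting different genes beside each other assumes even coverage over length and GC content, which was not tested. Over 10281 tested genes the level fell with transcript length (Spearman's rho -0.24) and with GC content (rho -0.27). There were 18 genes over 100 TPM and 6 under 10 TPM by median. Of the 46 neighbours in the order, 45 overlapped over the 12 libraries, and only PCNA over TK1 did not. Within one complex the levels were unequal: MCM2, a subunit of the same helicase ring, had a median of 10.7 TPM while MCM3 had 173 TPM. Across the 47 genes, the median level was lower at greater length of the principal coding transcript in GENCODE 29 (Spearman's rho -0.59), a description over genes that share libraries.

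**Figure D1:**
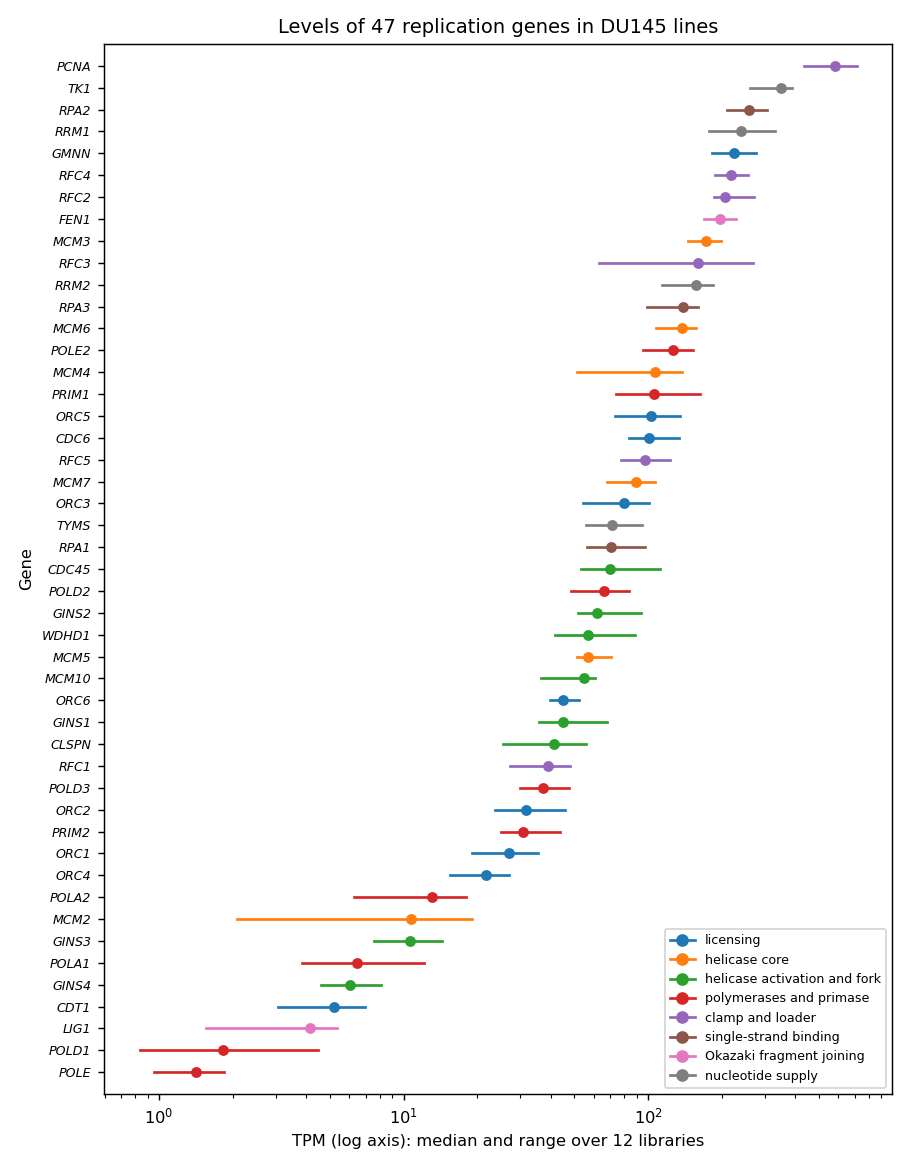
Median (point) and range (line) of TPM over the 12 libraries for the 47 replication genes, on a log axis, coloured by role. PCNA lies alone at the top, and POLE, POLD1, LIG1 and CDT1 are the lowest 4.

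Most replication genes were a little lower in the knockout lines, but none passed the test. Of the 47, 36 had a negative difference between line means and 11 a positive one, while 46.7% of all 17367 genes were negative. The median over the 47 was -0.12 on the log2 scale and the median over all genes 0.02. No gene of the set passed an adjusted p of 0.05 in limma (0 of 47, background 0.00576%), either with 3 line means per genotype or with 12 libraries and line as a random block (background 2.12%). The within-line correlation in the 12-library fit was -0.03, so that fit took the libraries nearly as independent samples. At an unadjusted p under 0.05, 5 were lower and 0 higher (backgrounds 5.46% and 7.53%): MCM4, GINS2, CDC45, RFC3 and RPA3. In 11 of the 47 all 3 knockout line means lay below all 3 RAC1-positive line means, and in 0 above (backgrounds 8.52% and 12%). These 11 were MCM4, GINS2, CDC45, RPA3, POLA2, RRM1, RFC2, CLSPN, ORC5, TYMS and POLE2. No gene of the set had all 6 knockout libraries apart from all 6 RAC1-positive libraries in either direction (backgrounds 0.714% lower and 2.14% higher). In the authors' deposited table, which reports 15140 genes with an adjusted p, 6 of the 47 were lower at an adjusted p under 0.05 and 0 higher, against backgrounds of 4.06% lower and 5.68% higher: the authors' log2 fold change was -0.70 for MCM4, -0.62 for RFC3, -0.51 for POLA2, -0.38 for GINS2, -0.33 for CDC45 and -0.33 for RPA3. Whether that comparison took the libraries of a line as separate samples is not known here. Its calls, here and below, can therefore not be taken as equal in kind to a test of line means.

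The count of separated genes depended on single libraries. sgRAC1 clone 3 replicate 1 was the lowest of the 12 libraries for 22 of the 47 genes, against 13.5% of all genes, and its median deviation from each gene's own mean was -0.31 on the log2 scale. The second library of the same clone, from batch 2, had a median deviation of -0.09, and the 4 libraries of the other knockout clones lay between -0.03 and 0.06. Among RAC1-positive libraries the medians were 0.13, -0.12 and -0.06 in batch 2 for parental cells, sgNTC clone 1 and sgNTC clone 2, and 0.10, 0.15 and 0.17 in batch 1. Replication genes were thus lowest in 1 knockout library, and in both sgNTC clones lay below their mean in batch 2 and above it in batch 1. sgNTC clone 2 replicate 1, which listed the fewest genes above 0, was the highest library for 18 of the 47 genes and for 24.9% of all genes. Without that library 5 genes were separated lower and 1 higher (10.2% and 13.7% of all genes). Without sgRAC1 clone 3 replicate 1 there were 9 lower and 1 higher (7.11% and 12.1%). Without sgNTC clone 1 replicate 1 there were 5 lower and 0 higher (7.17% and 11.4%), and without sgNTC clone 1 replicate 2 there were 16 lower and 0 higher (9.47% and 11.9%). With sgNTC clone 2 replicate 1 and sgRAC1 clone 3 replicate 1 both left out, 4 were lower and 2 higher (8.60% and 14.5%), the median difference was -0.06, and 29 of the 47 were negative against 47.3% of all genes.

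**Figure D2:**
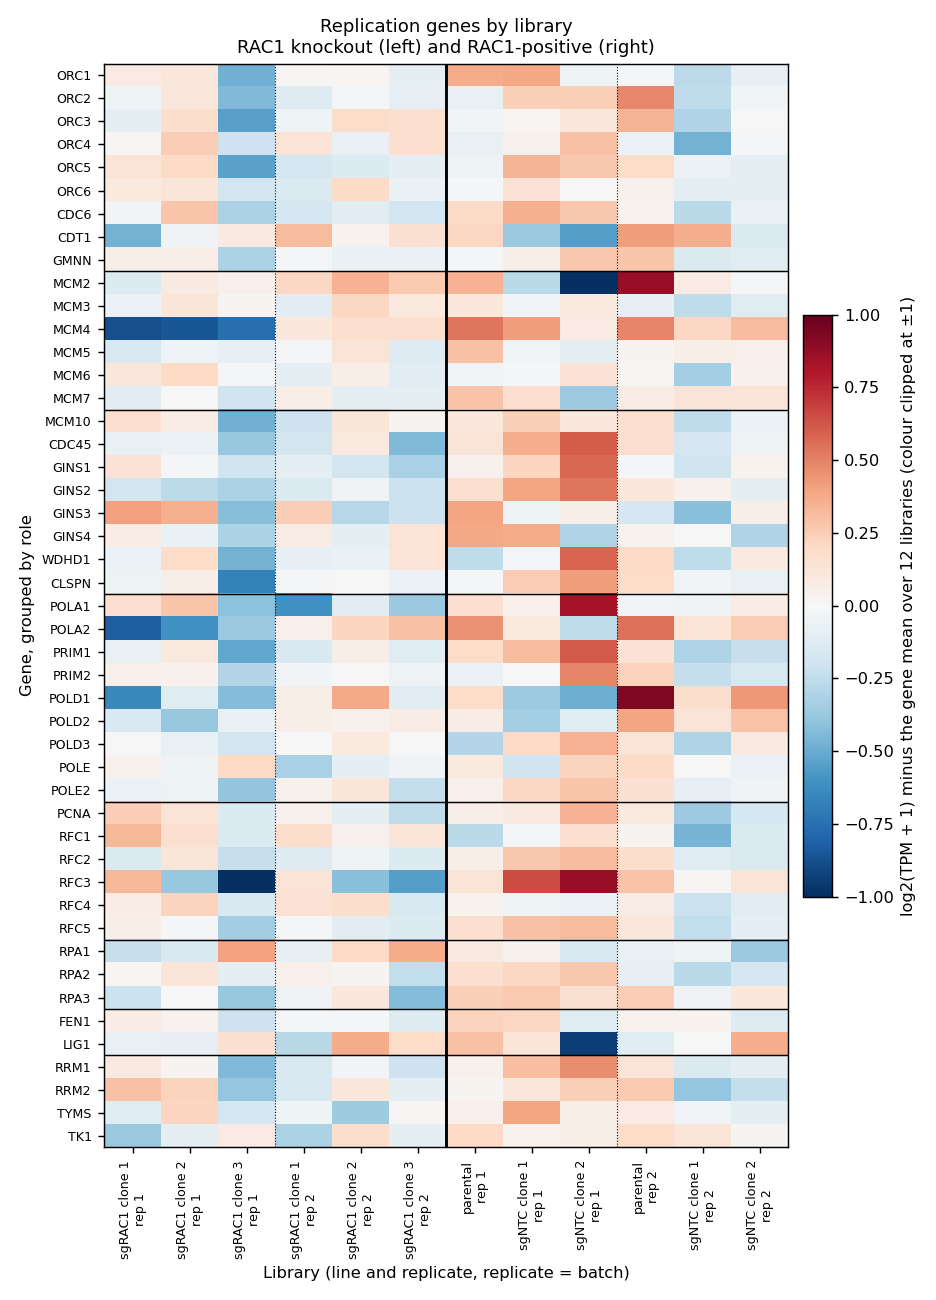
Each row is a replication gene, grouped by role, and each column a library, knockout on the left of the heavy line and RAC1-positive on the right; colour is log2(TPM + 1) minus the gene's mean over 12 libraries. The column of sgRAC1 clone 3 replicate 1 is mostly blue (40 of 47 genes below their mean), and MCM4 is dark blue in all 3 knockout libraries of batch 1.

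The 3 knockout clones gave different counts. Against the mean of the RAC1-positive lines, the median over the 47 genes was -0.09 in sgRAC1 clone 1, -0.04 in sgRAC1 clone 2 and -0.23 in sgRAC1 clone 3, and the RAC1-positive lines themselves ran from -0.06 to 0.07. The number of genes below all 3 RAC1-positive lines was 20 in clone 1 (background 22.9%), 15 in clone 2 (background 21.2%) and 36 in clone 3 (background 24.3%). Clones 2 and 3 share a guide. In batch 2 clone 3 was higher than in batch 1 for 37 of the 47 genes, with a median of 0.19.

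Taken by role, the licensing genes had small differences. Of the 9, 6 had a negative difference, with a median of -0.11. ORC5, a subunit of the origin recognition complex, was separated: its line means were 101 ± 12.4 TPM in knockout lines and 115 ± 3.29 TPM in RAC1-positive lines (SD, n = 3 lines each), and its libraries overlapped. CDC6, the loader that works with it, averaged 98.6 ± 12.1 TPM in knockout lines and 112 ± 1.79 TPM in RAC1-positive lines. CDT1, its partner in MCM loading, had 5.09 ± 0.334 TPM in knockout lines and 5.09 ± 1.35 TPM in RAC1-positive lines. GMNN, the inhibitor of CDT1, had 219.6 ± 16.9 TPM in knockout lines and 238 ± 15.3 TPM in RAC1-positive lines.

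In the helicase ring MCM4 stood out from its partners. MCM4 (chr8:47960185-47978160) had 51.1, 52.0 and 56.0 TPM in knockout clones 1, 2 and 3 in batch 1 and 102, 107 and 107 TPM in batch 2. In RAC1-positive lines it had 138, 127 and 100.4 TPM in parental cells, sgNTC clone 1 and sgNTC clone 2 in batch 1, and 133, 109.8 and 118 TPM in batch 2. The batch 1 knockout libraries were below all other libraries, of either genotype, and the batch 2 knockout libraries lay just under the RAC1-positive libraries of their own batch. Over line means the difference was -0.68 (SE 0.11; 95% interval -0.93 to -0.43; limma, adjusted p = 0.143), with -0.19 in batch 2 and -1.17 in batch 1, both with the 3 knockout libraries below the 3 RAC1-positive ones. The line means were 79.2 ± 2.34 TPM in knockout lines and 121 ± 13.3 TPM in RAC1-positive lines (SD, n = 3 lines each), an SD that does not carry the split between batches. Each knockout clone was higher in batch 2, by 0.99, 1.03 and 0.92 on the log2 scale, while parental cells, sgNTC clone 1 and sgNTC clone 2 differed by -0.05, -0.21 and 0.24. The change of the genotype difference between batches was 0.99 (SE 0.17; limma, adjusted p = 0.745; unadjusted p = 0.000803). The other ring subunits had smaller or opposite differences, and 3 of the 6 were negative. MCM2 had the largest positive difference of the set, 0.27, with sgNTC clone 2 replicate 1 at 2.09 TPM, and without the line sgNTC clone 2 its difference was -0.12. MCM3 averaged 179 ± 15.7 TPM in knockout lines and 168 ± 9.37 TPM in RAC1-positive lines, and MCM6 averaged 139.9 ± 9.61 TPM in knockout lines and 134.9 ± 12.2 TPM in RAC1-positive lines. MCM5 had 55.6 ± 3.29 TPM in knockout lines and 59.7 ± 4.21 TPM in RAC1-positive lines. MCM7 had 83.4 ± 3.84 TPM in knockout lines and 92.8 ± 9.81 TPM in RAC1-positive lines, with the 3 knockout libraries of batch 2 below the 3 RAC1-positive ones.

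Among helicase activation and fork genes, 7 of 8 were lower and 3 were separated by line mean, GINS2, CDC45 and CLSPN (background 8.52%). Over the whole set the count of separated genes, 11, was 5 without sgNTC clone 2 replicate 1 or without sgNTC clone 1 replicate 1. GINS2 (chr16:85676198-85690073, minus strand), a subunit of GINS, had 56.9, 53.9 and 51.7 TPM in knockout clones 1 to 3 in batch 1 and 58.3, 63.1 and 55.7 TPM in batch 2. The RAC1-positive lines had 72.2, 85.2 and 94.0 TPM in batch 1 and 69.6, 66.5 and 60.6 TPM in batch 2, in the order parental, sgNTC clone 1 and sgNTC clone 2. The groups were separated in batch 1 and touched in batch 2, where sgRAC1 clone 2 lay above sgNTC clone 2. Its difference was -0.38 (SE 0.09; limma, adjusted p = 0.198), with -0.15 in batch 2 and -0.61 in batch 1. CDC45 (chr22:19479459-19520612), which binds the ring at firing, had 68.9, 69.6 and 55.8 TPM in batch 1 and 63.8, 77.7 and 53.2 TPM in batch 2 in the knockout clones. In the RAC1-positive lines it had 79.6, 93.9 and 111 TPM in batch 1 and 81.9, 64.4 and 70.03 TPM in batch 2. Its difference was -0.35 (SE 0.13; limma, adjusted p = 0.330), with overlap in batch 2. CLSPN, which carries the checkpoint signal at the fork, averaged 38.6 ± 5.11 TPM in knockout lines and 45.7 ± 1.72 TPM in RAC1-positive lines, and its lowest value was 25.6 TPM in sgRAC1 clone 3 replicate 1. GINS1 had 42.0 ± 4.36 TPM in knockout lines and 49.6 ± 6.53 TPM in RAC1-positive lines. WDHD1, which ties polymerase alpha to the helicase, had 56.6 ± 4.12 TPM in knockout lines and 62.2 ± 11.5 TPM in RAC1-positive lines, and MCM10, a firing factor, had 50.3 ± 5.45 TPM in knockout lines and 53.6 ± 2.53 TPM in RAC1-positive lines. GINS3 was the exception with 10.9 ± 2.61 TPM in knockout lines and 10.5 ± 1.46 TPM in RAC1-positive lines, and GINS4 had 5.85 ± 0.414 TPM in knockout lines and 6.26 ± 1.38 TPM in RAC1-positive lines.

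All 9 polymerase and primase genes had a negative difference, with a median of -0.19. The sign of POLD3, PRIM1, PRIM2 and POLE changed under at least 1 of the alternatives given at the end. POLA2 (chr11:65261762-65305589), the accessory subunit of polymerase alpha, had 6.29, 7.499 and 8.998 TPM in knockout clones 1 to 3 in batch 1 and 12.4, 13.999 and 14.8 TPM in batch 2. The RAC1-positive lines had 16.7, 12.8 and 9.82 TPM in batch 1 and 17.9, 13.2 and 14.4 TPM in batch 2. As with MCM4, the knockout libraries of batch 1 were the lowest 3 of the 12. In batch 2 the genotypes overlapped for POLA2, unlike for MCM4. Its difference was -0.41 (SE 0.18; limma, adjusted p = 0.390), with -0.13 in batch 2 and -0.70 in batch 1, and the knockout clones were higher in batch 2 by 0.88, 0.82 and 0.66. MCM4 and POLA2 were the only 2 of the 47 genes with every batch 1 knockout library below every batch 1 RAC1-positive library and every knockout clone over 1.5-fold higher in batch 2, a pattern chosen after its values were seen, which 71 of 17367 genes (0.409%) share. POLE2, the second subunit of polymerase epsilon, averaged 118 ± 15.2 TPM in knockout lines and 135 ± 2.83 TPM in RAC1-positive lines. POLA1, the catalytic subunit partner of POLA2, averaged 5.69 ± 1.15 TPM in knockout lines and 7.53 ± 1.65 TPM in RAC1-positive lines, and differed by -0.36 in batch 2 and -0.34 in batch 1. PRIM1, the primase that makes the RNA primer, had a difference of 0.06 in batch 2 and -0.54 in batch 1. POLD1 had 1.66 ± 0.444 TPM in knockout lines and 2.34 ± 0.882 TPM in RAC1-positive lines, and POLD2 had 60.6 ± 3.36 TPM in knockout lines and 67.5 ± 7.82 TPM in RAC1-positive lines.

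Of the 6 clamp and clamp loader genes 4 were lower, and RFC3 differed most. RFC3 (chr13:33818049-33966558) had 185, 112 and 63.0 TPM in knockout clones 1, 2 and 3 in batch 1 and 161, 109 and 99.7 TPM in batch 2. The RAC1-positive lines had 161, 230.3 and 269 TPM in batch 1 and 179, 147 and 160.1 TPM in batch 2. sgRAC1 clone 1 lay inside the RAC1-positive range in both batches, while clones 2 and 3, which share a guide, lay below it. Against the RAC1-positive mean the 3 clones differed by -0.11, -0.75 and -1.22, and the genotype difference was -0.69 (SE 0.26; limma, adjusted p = 0.334). RFC2 averaged 206 ± 17.5 TPM in knockout lines and 235 ± 2.74 TPM in RAC1-positive lines. RFC5 had 92.7 ± 8.62 TPM in knockout lines and 106 ± 3.64 TPM in RAC1-positive lines. RFC1, the large subunit of the loader, had the opposite sign, with 41.3 ± 3.88 TPM in knockout lines and 35.3 ± 3.07 TPM in RAC1-positive lines. It was the only gene of the set that had the 3 knockout libraries of 1 batch above the 3 RAC1-positive ones, in batch 2. PCNA averaged 559.5 ± 66.5 TPM in knockout lines and 571 ± 48.5 TPM in RAC1-positive lines.

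For single-strand binding, RPA3 (chr7:7636518-7718607, minus strand), the smallest RPA subunit, had 115, 133 and 103 TPM in knockout clones 1, 2 and 3 in batch 1 and 131, 144 and 98.9 TPM in batch 2. The RAC1-positive lines had 158, 160.4 and 149 TPM in batch 1 and 159, 131 and 144 TPM in batch 2. Batch 1 was separated and batch 2 overlapped, and sgRAC1 clone 3 was the lowest in both batches. Its difference was -0.32 (SE 0.13; limma, adjusted p = 0.354). RPA1 had 79.3 ± 15.6 TPM in knockout lines and 69.5 ± 7.16 TPM in RAC1-positive lines, and RPA2 had 252 ± 22.4 TPM in knockout lines and 260.4 ± 7.16 TPM in RAC1-positive lines. In Okazaki fragment joining, FEN1, the flap endonuclease, had 190.5 ± 14.2 TPM in knockout lines and 203 ± 20.2 TPM in RAC1-positive lines, and LIG1 had 4.14 ± 0.667 TPM in knockout lines and 3.96 ± 0.455 TPM in RAC1-positive lines. All 4 nucleotide supply genes had a negative difference, of -0.23 for RRM1, -0.21 for TK1, -0.16 for TYMS and -0.01 for RRM2. RRM1 averaged 223 ± 26.6 TPM in knockout lines and 263 ± 13.3 TPM in RAC1-positive lines, and TK1 averaged 318 ± 45.1 TPM in knockout lines and 364 ± 20.01 TPM in RAC1-positive lines.

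**Figure D3:**
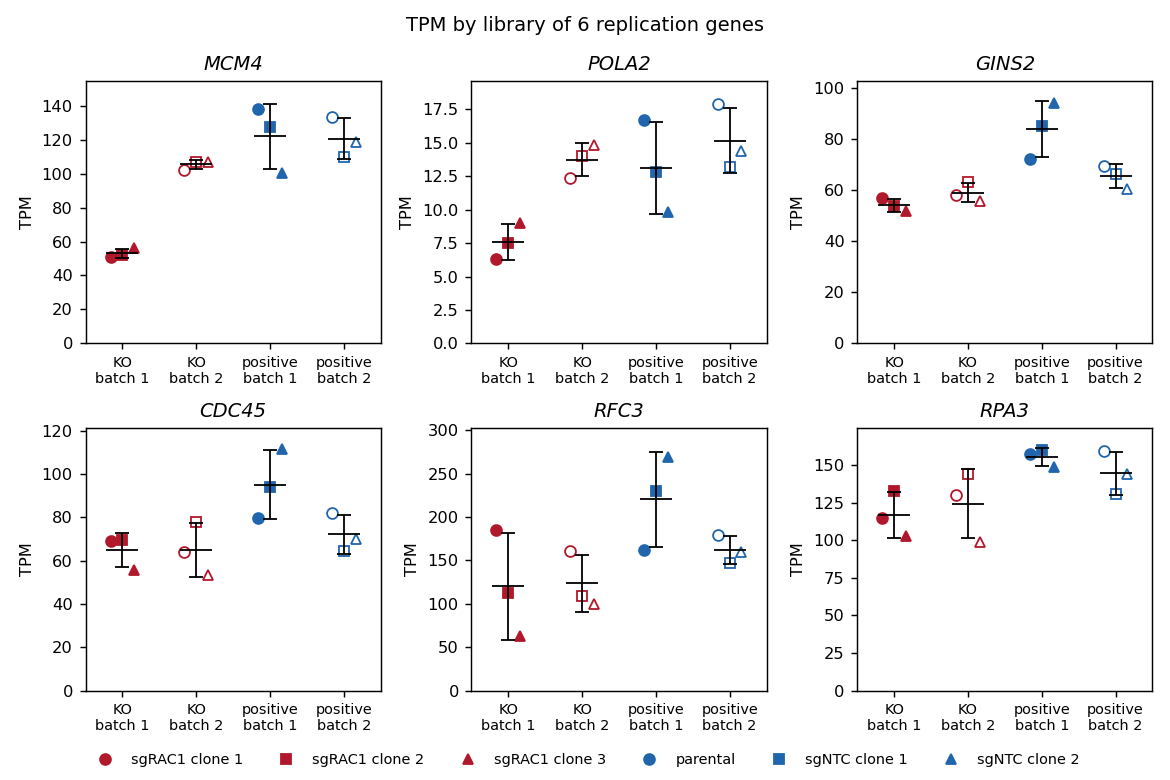
TPM of MCM4, POLA2, GINS2, CDC45, RFC3 and RPA3 in each library, knockout (red) left of RAC1-positive (blue), filled symbols for batch 1 and open for batch 2; bars are the mean and SD of 3 libraries. MCM4 and POLA2 in the knockout libraries of batch 1 lie below every other library of the same gene, most closely for POLA2 with 8.998 TPM in sgRAC1 clone 3 and 9.82 TPM in sgNTC clone 2, and RFC3 is spread over 63.0 to 185 TPM within the knockout clones.

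Within batches the median difference between genotypes was nearer to 0 in batch 2. In batch 2 alone 28 of the 47 genes were lower in the knockout libraries, against 46.8% of all genes, and the median difference was -0.04. In batch 1 alone 39 were lower, against 47% of all genes, with a median of -0.20, and the median of all genes was 0.02 in each batch. In batch 2, 4 of the 47 had all 3 knockout libraries below the 3 RAC1-positive libraries, MCM4, MCM7, POLA1 and POLD2, and 1 above, RFC1 (backgrounds 7.82% and 12.7%). In batch 1 there were 9 below and 0 above (backgrounds 6.75% and 7.44%). The 9 were MCM4, GINS2, CDC45, POLA2, PRIM1, POLE2, RFC5, RPA2 and RPA3. MCM4 was thus the only gene of the set separated in both. The change of the difference between batches, batch 2 minus batch 1, was positive in 38 of the 47 genes against 52.6% of all genes, with a median of 0.19 against 0.03, and 0 of 47 passed in limma (background 0%). At an unadjusted p under 0.05 there were 2, MCM4 and POLA2 (background 4.36%). With another scaling, median of ratios, the median change was 0.07 in the 47 genes and -0.07 in all genes, and 30 were positive. sgNTC clone 2 replicate 1 and sgRAC1 clone 3 replicate 1 both belong to batch 1. Without the line sgNTC clone 2 the median change was 0.16 with 39 positive, and without the line sgRAC1 clone 3 it was 0.11 with 31 positive.

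**Figure D4:**
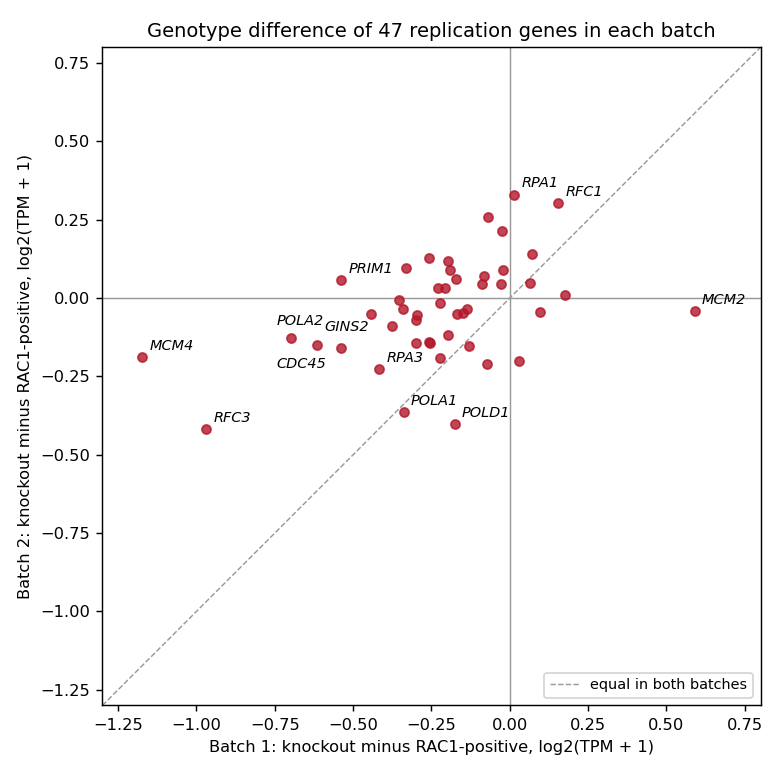
Knockout minus RAC1-positive difference on the log2(TPM + 1) scale in batch 1 (x axis) and batch 2 (y axis), 1 point for each of 47 genes; the dashed line marks equal differences. Most points lie above that line, MCM4 has -0.19 in batch 2 and -1.17 in batch 1, and MCM2, which had 1 very low RAC1-positive library in batch 1, lies far to the right.

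Batch 2 against batch 1, taken within each of the 6 lines, had a few of these genes on the same side in every line, but 0 of 47 passed in limma (background 0.0115%). The differences were negative in 33 genes and positive in 14, while 56.7% of all genes were higher in batch 2, and the median was -0.07 in the 47 genes against 0.04 in all genes. Higher in 6 of 6 lines were CDT1, MCM2, POLA2, POLD1 and POLD2 (5 of 47, background 4.34%), and lower in 6 of 6 was GINS1 (1 of 47, background 1.21%). At an unadjusted p under 0.05, 6 were higher (background 6.51%) and 5 lower (background 1.68%). POLD2, the second subunit of polymerase delta, had 66.3, 65.4 and 66.5 TPM in batch 2 and 56.8, 48.3 and 60.3 TPM in batch 1 in knockout clones 1 to 3. In RAC1-positive lines it had 83.5, 69.3 and 77.4 TPM in batch 2 and 66.7, 49.7 and 58.1 TPM in batch 1. Its difference between batches was 0.33 (SE 0.08; limma, adjusted p = 0.269), the smallest adjusted p of the 47. POLD1 differed by 0.62 (SE 0.16; limma, adjusted p = 0.325) at levels of 0.832 to 4.45 TPM. GINS1 differed by -0.26 (SE 0.09; limma, adjusted p = 0.540), with every line between -0.54 and -0.05. The 9 genes whose principal coding transcript has at least 55% GC, a threshold set after the values were seen, were CDT1, MCM2, MCM5, MCM7, POLD1, POLD2, POLE, LIG1 and TK1. Of these, 8 were higher in batch 2, with a median of 0.17 and a median level of 10.7 TPM. Of the 38 genes under 55% GC, 6 were higher in batch 2, with a median of -0.10 and a median level of 75.6 TPM. Over the 47 genes the batch difference followed GC content with Spearman's rho 0.39 and Pearson's r 0.57, and over 10281 tested genes whose symbol names a protein-coding gene of GENCODE 29 with rho 0.35, as descriptions across genes of the same 12 libraries.

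Other genes of the pathway were taken from 5 lists. The 107 listed genes gave 104 that passed the level filter, of which 72 were lower in the knockout lines (69.2%, against 46.7% of all genes) and 32 higher, with a median of -0.11 and 0 called in limma. Of 25 tested firing and fork factors 18 were lower. The authors' deposited table, which holds 27 of the group, called 0 lower and 0 higher (backgrounds 4.06% and 5.68%). TIPIN, the partner of TIMELESS at the fork, averaged 126 ± 15.9 TPM in knockout lines and 159 ± 5.03 TPM in RAC1-positive lines (limma, adjusted p = 0.296). Of 19 other nucleotide supply genes 15 were lower. DTYMK, which phosphorylates dTMP, averaged 63.0 ± 3.82 TPM in knockout lines and 101 ± 23.3 TPM in RAC1-positive lines, a difference of -0.66 (limma, adjusted p = 0.210), and in the authors' deposited table its adjusted p was 2.51e-06. RBL1, a relative of the retinoblastoma protein in the E2F group, had all 6 knockout libraries below all 6 RAC1-positive libraries (background 0.714%), with 5.15 to 7.97 TPM in the knockout libraries and 8.59 to 12.6 TPM in the RAC1-positive libraries. It is 1 gene picked from 104, and the count of such genes among them is not given here. RBL2, of the same family, had the opposite sign in the authors' deposited table, with a log2 fold change of 0.62 against -0.55 for RBL1.

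In the chromatin assembly and methylation upkeep group 9 of 10 genes were lower. The authors' deposited table called 4 of the 10 lower and 0 higher, against 4.06% lower and 5.68% higher of all its genes. UHRF1, which recruits DNMT1 to new DNA, averaged 46.6 ± 4.83 TPM in knockout lines and 62.2 ± 5.55 TPM in RAC1-positive lines (limma, adjusted p = 0.254). DNMT1, the maintenance methyltransferase, averaged 26.7 ± 1.37 TPM in knockout lines and 33.9 ± 2.83 TPM in RAC1-positive lines (limma, adjusted p = 0.288). Their differences within batches were -0.38 in batch 2 and -0.41 in batch 1 for UHRF1, and -0.31 in batch 2 and -0.35 in batch 1 for DNMT1. In the E2F and S phase control group 15 of 28 tested genes were lower and 13 higher. That share of lower genes, 53.6%, is near the 46.7% of all genes. The authors' deposited table, which holds 29 of the group, called 5 lower and 2 higher (backgrounds 4.06% and 5.68%). CDKN1A (p21), an inhibitor of the cyclin-dependent kinases that open S phase, averaged 40.1 ± 6.04 TPM in knockout lines and 22.9 ± 4.38 TPM in RAC1-positive lines, a difference of 0.80 (limma, adjusted p = 0.197). FBXO5, which restrains the anaphase-promoting complex, averaged 20.8 ± 0.709 TPM in knockout lines and 31.3 ± 6.90 TPM in RAC1-positive lines (limma, adjusted p = 0.250). Of 22 replication stress and fork repair genes 15 were lower. The authors' deposited table called 1 lower, ETAA1, and 1 higher, BRIP1, shares near the backgrounds of 4.06% lower and 5.68% higher. ETAA1, which binds RPA and activates ATR, averaged 6.18 ± 0.0891 TPM in knockout lines and 10.2 ± 3.20 TPM in RAC1-positive lines, and BRIP1, a helicase that works with BRCA1, averaged 9.34 ± 0.334 TPM in knockout lines and 7.05 ± 0.228 TPM in RAC1-positive lines.

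Counts of some of these genes may include reads of a neighbour, since no source used here gives the tool or the strand setting of the counting. Exons of 21 of the 47 genes overlap those of another gene in GENCODE 29, 17 of them on the opposite strand. The neighbours with high median levels are NACA at 264 TPM for PRIM1, EIF4A2 at 262 TPM for RFC4, TMEM258 at 82.9 TPM for FEN1, WSB2 at 35.6 TPM for RFC5 and UMAD1 at 29.8 TPM for RPA3, so the values of these 5 genes are uncertain. NACA lies on the same strand as PRIM1, so a strand setting would not tell their reads apart. These 5 were picked by the level of the neighbour alone. Neighbours at lower levels also overlap genes that are lower themselves. Among them are TPRA1 at 5.37 TPM for MCM2 (median 10.7 TPM) and ENOSF1 at 13.6 TPM for TYMS (median 71.3 TPM). The values of MCM2 and TYMS are thus uncertain too. MCM4, CDC45 and RFC3 have no such overlap.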

How the data were processed

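RNA-seq of 12 DU145 libraries was used, 2 from each of 6 lines. Per the submitters' processing notes the reads were demultiplexed with bcl2fastq and aligned to GRCh38 with STAR 2.6.1d, and DESeq2 was used; no source used here gives the tool, strand setting or annotation for counting. Per the labels' protocols, 160 ng of RNA per library went through reverse transcription, amplification and tagmentation. The deposited table gives a TPM value per gene and library. In the same table the authors deposited the mean of normalized counts as a signal, a log2 fold change with its error, a test statistic as a score, and both raw and adjusted p-values, which are quoted as the authors' and were not recomputed. TPM sums to 1000000 in each library and carries no depth, so no counting interval can be given.

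Values were taken as log2(TPM + 1). A gene was tested where its mean was at or above 1 TPM in at least 1 genotype, which kept 17367 of 56832 genes. The 2 libraries of a line were averaged and 3 knockout line means were compared with 3 RAC1-positive line means in limma 3.58.1 (R 4.3.3; two-sided) with Benjamini-Hochberg adjustment over all tested genes and a threshold of 0.05. Differences between batches within lines, and their dependence on genotype, were fitted in the same way. Fold changes on this scale understate the change of genes with low values. The scripts were tested on simulated data. A gene was counted as separated where every knockout value lay beyond every RAC1-positive value.

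The 47 genes, the other lists and the markers were chosen with earlier results of these data known. All 47 could be named; full values were given for genes with the smallest p in the genotype and batch tests and for those outside the ranges of the rest, and up to 4 genes were named per other list. The replicate number marks a shared batch per the labels, so the fits were repeated with it as a block; over 15 pairs of lines same-numbered deviations had correlations of -0.13 to 0.30 (median 0.026; 2 pairs were over 0.1). The p-values measure the spread between these lines. Gene positions, exon overlaps, and the length and GC content of the principal coding transcript came from GENCODE 29 and promoters from RefSeq (GRCh38.p14). Motif counts used exact matches on both strands. Alternatives covered the pseudocount (0.1 and 5), the level filter, 2 other scalings, the unit of replication, each batch alone, and each line or library left out; leaving out sgNTC clone 2 replicate 1 and sgRAC1 clone 3 replicate 1 together was chosen after seeing the data.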

Additional observations from a re-analysis of the deposited data

Results flagged for a closer look

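Over 94 groups of 6 libraries (47 genes in each genotype), 9 had a highest or lowest library far from the rest. Chance flags about 1 in 20 groups of 6 independent values. The libraries here come in pairs from the same line, and all genes share them, so that rate is no measure for this count. In sgRAC1 clone 3 replicate 1, 4 genes were far below the other knockout libraries. ORC1, the largest subunit of the origin recognition complex, was at 19.0 TPM there, with the next knockout library at 25.1 TPM. GMNN was at 183 TPM, with the next at 217 TPM. CLSPN was at 25.6 TPM, with the next at 39.9 TPM. PRIM2, the regulatory subunit of primase, was at 25.1 TPM, with the next at 29.9 TPM.

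In sgNTC clone 2 replicate 1, the library with the fewest genes listed above 0, 3 genes stood far from the other RAC1-positive libraries. MCM7 was at 67.6 TPM, with the next at 92.3 TPM, and LIG1 was at 1.56 TPM, with the next at 3.54 TPM. POLA1 was high instead, at 12.1 TPM, with the next at 7.28 TPM. The sgNTC clone 1 libraries held the other 2: MCM6 was lowest in replicate 2 at 108 TPM, with the next at 134 TPM, and TYMS, thymidylate synthase, was highest in replicate 1 at 94.3 TPM, with the next at 75.8 TPM.

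GINS2 was higher in batch 2 than in batch 1 in 3 of 3 knockout clones and lower in 3 of 3 RAC1-positive lines, as are 2.49% of all genes in one direction or the other. The change of its genotype difference was 0.46 on the log2 scale and did not pass (limma, adjusted p = 0.904).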

How the results depend on the processing

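No replication gene passed in limma under any alternative. The sign of the genotype difference changed in 20 of the 47 genes under at least 1 of 30 alternatives. It changed for RRM2 and ORC6 under 10, PCNA under 9, CDT1 under 8, and GINS3 and ORC3 under 7. RPA2, GINS4 and POLD3 changed under 5, MCM2, LIG1 and PRIM2 under 3, and MCM10 and WDHD1 under 2. MCM3, MCM6, ORC1, ORC4, POLE and PRIM1 changed under 1 each. The median difference of the 47 genes between knockout and RAC1-positive lines (-0.12) lay between -0.17 and -0.06 with a line or library left out and between -0.20 and -0.04 under the other alternatives, and 24 genes were lower and 3 higher under all that gave a value; ORC6 was the only one whose sign changed under another scaling. The adjusted p in limma ran over these from 0.061 to 0.421 for MCM4, 0.084 to 0.520 for GINS2, 0.213 to 0.691 for CDC45, 0.163 to 0.644 for RFC3, 0.131 to 0.610 for RPA3 and 0.177 to 0.726 for POLA2. The median between batches (-0.07) ran from -0.12 to -0.02, and that of the change between batches (0.19) from 0.11 to 0.33, with a line left out. Over all genes, the count for the genotypes (1, RAC1) was 0 with a pseudocount of 0.1, 2 with 5, 0 without a filter, 3 with a filter of 5 TPM, 0 with median-of-ratios and 0 with upper quartile scaling, 0 in batch 1 alone and 33 in batch 2 alone. It was 0 to 21 with a line or library left out, 21 without sgNTC clone 2 replicate 1, 3 without sgNTC clone 1 replicate 2, and 10 without both sgNTC clone 2 replicate 1 and sgRAC1 clone 3 replicate 1. With 12 libraries as samples it was 369 with line as a random block, 320 with the replicate block added and 343 with the replicate block and no line term; the block called none of the 47 genes. The count between batches (2) was 22 with a filter of 5 TPM, 0 with median-of-ratios and 0 with upper quartile scaling, 0 without the line term and 0 to 5 with a line left out. The change between batches (0 genes) had 0 to 3 with a line left out. The causes were not tested. With 3 lines per genotype, clone and genotype differ in few independent units, TPM carries no depth, and genes such as POLE and POLD1 near 1 to 2 TPM are the least precise.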
